A study of Homo sapiens with 8 samples.

Results

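The genes described here are the targets of serum response factor (SRF) and the genes of the contractile actin cytoskeleton, a list of 35 genes. Members were taken as the probe sets that the platform annotation assigns to exactly 1 gene of the list. Of the 35 genes, 32 had such a probe set, out of 19775 genes with one on the array, and 30 were bright enough to be tested. LMOD1 and ANKRD1 lay under the filter on low signals. ACTG1 appeared only in 9 probe sets that it shares with ACTB, which were not used, and FLNA and FHL1 were not analysed here.

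SRF is a transcription factor that binds the CArG box, a short A/T-rich element found near many muscle and cytoskeletal genes. Its cofactor MRTF (MRTFA and MRTFB) is held in the cytoplasm by actin monomers. When actin assembles into filaments, MRTF is freed, enters the nucleus and switches on actin, calponin, transgelin, tropomyosin and myosin genes. The YAP and TEAD factors respond to the same cell tension and share targets with it, among them CCN1 and CCN2. In cells of bone and other mesenchymal origin these genes build stress fibres and focal adhesions.

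The cells were Saos-2, an established human osteosarcoma line labelled as p53-null in every group, the controls included. Untreated cells (3 arrays, replicates 1, 2 and 3) were compared with cells given the compound labelled Prima for 6 h (3 arrays, replicates 1, 2 and 3) or for 12 h (2 arrays, replicates 1 and 3). No dose, vehicle or culture condition is given in the labels, and a single line stands for the genotype. The untreated arrays carry no harvest time. Values are signals of the MAS5 algorithm on a linear scale, each array scaled to a trimmed mean of 100.01. The labels do not say that replicates were separate cultures, so each p-value covers the variation among these arrays alone, and that may be technical.

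The osteoblast markers of the labelled cell type were unequal in signal. RUNX2, the master regulator of bone-forming cells, read 1411 to 2350 over the 8 arrays, COL1A1 read 2764 to 4801 and SPARC 1319 to 2556. Of the 8 measured genes among 9 listed, SP7 read 88.8 to 272.5 and ALPL 130.5 to 286, while COL1A2 (26.9 to 99.6), IBSP (32.1 to 77.4) and PTH1R (5.41 to 47.1) were dim. Of the smooth muscle markers MYH11 read 5.46 to 17.9, DES 4.18 to 45.7, SMTN 41.0 to 105 and MYOCD 194 to 650.5. ACTA2, CNN1 and TAGLN, which also mark smooth muscle, were bright in these cells. The arrays numbered 2 had median signals of 50.8 (untreated) and 47.5 (6 h), against 14.2 to 24.9 on the other 6, and no 12 h array has that number.

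Promoters of the members are shown to make the SRF element visible. Of the 35 genes, 31 had an entry in RefSeq's promoter table (GRCh38.p14; 250 bases before to 50 after the start); ACTB, TAGLN, MYL9 and CCN1 were not searched. A CArG box, searched on both strands, lay in 8 of the 31 windows (25.8%), those of ACTG2, ACTG1, CNN2, TPM4, MYLK, FLNA, FHL2 and SRF itself. Among all 35116 promoter windows of that length 1.29% held one. With 1 letter of the A/T core changed, ZYX, TGFB1I1 and ACTN4 were added, which made 35.5% of the members against 8.13% of all windows. GGAATG, the core of the TEAD element (searched also as its reverse complement, and overlapping a CArG box in no member), lay in 7 of the 31 windows (22.6%) against 14.0% of all. The 6 box-holding promoters of tested members are printed below 5′ to 3′ over the 250 bases before the start, with the CArG box in capitals, and the promoter of CCN2 with GGAATG in capitals. A match is a description of the letters and not of binding.
ACTG2 (chr2:73892758-73893007, + strand): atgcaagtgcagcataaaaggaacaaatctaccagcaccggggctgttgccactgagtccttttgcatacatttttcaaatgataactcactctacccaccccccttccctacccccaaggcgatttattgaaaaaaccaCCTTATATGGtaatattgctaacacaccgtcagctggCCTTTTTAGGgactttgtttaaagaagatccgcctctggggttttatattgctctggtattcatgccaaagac
SRF (chr6:43171019-43171268, + strand): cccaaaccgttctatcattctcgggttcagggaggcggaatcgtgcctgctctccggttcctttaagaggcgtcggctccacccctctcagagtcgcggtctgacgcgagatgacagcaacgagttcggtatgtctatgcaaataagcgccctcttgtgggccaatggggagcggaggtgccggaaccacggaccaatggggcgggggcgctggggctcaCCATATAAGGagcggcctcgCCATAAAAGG
TPM4 (chr19:16067288-16067537, + strand): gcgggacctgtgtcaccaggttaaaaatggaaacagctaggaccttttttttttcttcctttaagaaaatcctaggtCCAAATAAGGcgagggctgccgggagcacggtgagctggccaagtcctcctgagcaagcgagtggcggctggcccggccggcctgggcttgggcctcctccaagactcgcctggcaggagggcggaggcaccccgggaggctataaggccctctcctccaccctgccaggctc
MYLK (chr3:123620549-123620798, - strand): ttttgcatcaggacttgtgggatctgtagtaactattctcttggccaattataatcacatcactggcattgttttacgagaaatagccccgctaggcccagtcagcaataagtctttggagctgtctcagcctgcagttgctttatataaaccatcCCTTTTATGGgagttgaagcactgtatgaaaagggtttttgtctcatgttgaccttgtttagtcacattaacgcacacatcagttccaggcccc
FHL2 (chr2:105438514-105438763, - strand): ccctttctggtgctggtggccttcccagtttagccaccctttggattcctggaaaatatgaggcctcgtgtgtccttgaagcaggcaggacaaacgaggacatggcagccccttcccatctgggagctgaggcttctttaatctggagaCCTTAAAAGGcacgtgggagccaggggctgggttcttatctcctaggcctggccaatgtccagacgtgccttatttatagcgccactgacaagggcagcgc
CNN2 (chr19:1026358-1026607, + strand): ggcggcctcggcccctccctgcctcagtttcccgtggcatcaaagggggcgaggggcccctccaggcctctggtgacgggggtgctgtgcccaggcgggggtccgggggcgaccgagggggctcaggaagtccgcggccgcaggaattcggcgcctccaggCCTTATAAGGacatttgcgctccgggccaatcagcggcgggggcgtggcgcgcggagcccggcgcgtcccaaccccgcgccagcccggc
CCN2 (chr6:131951373-131951622, - strand): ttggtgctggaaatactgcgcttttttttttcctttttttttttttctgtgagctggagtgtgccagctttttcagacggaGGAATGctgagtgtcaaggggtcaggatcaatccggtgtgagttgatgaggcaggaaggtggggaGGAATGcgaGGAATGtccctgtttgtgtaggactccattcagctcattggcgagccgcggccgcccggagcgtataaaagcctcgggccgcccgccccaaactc
ACTG2 and SRF each hold a pair of boxes, beginning 110 and 73 bases before the start in ACTG2 and 30 and 10 bases before it in SRF. The box of FHL2 begins 101 bases before the start, that of MYLK 94, that of CNN2 89 and that of TPM4 173. In CCN2 the element GGAATG occurs 3 times, beginning 169, 104 and 95 bases before the start.

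The clearest pattern among the members was set by a single array. On the array labelled 6 h replicate 1, 5 members lay 2-fold or more under every other array on their brightest probe sets. They were the calponin CNN1, the transgelin TAGLN, the matricellular factor CCN2, the LIM protein PDLIM7 and the smooth muscle actin ACTA2. The other 6 h arrays and the 12 h arrays did not show this pattern. No member passed the test in any comparison, and nor did any of the 12063 genes tested (0% called in each comparison, limma with Benjamini-Hochberg adjustment at a threshold of 0.05). Without adjustment 79, 74 and 88 genes had p under 0.05 for 6 h against untreated, 12 h against untreated and 12 h against 6 h, and 0 of the 30 members were among them in each. With the replicate number as a block these counts were 493, 262 and 297 genes, and the members among them were ACTB at 6 h, ACTB and ACTN4 at 12 h, and ACTA2 for 12 h against 6 h, with 0 genes passing after adjustment.

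CNN1 encodes calponin, which binds actin filaments and restrains myosin. Its signal was 1195, 1060 and 1183 on the untreated arrays, 83.5, 939 and 1302 at 6 h, and 1097 and 1244 at 12 h, in order of replicate. The lowest of the other 7 arrays was thus 11.2-fold above 6 h replicate 1, and the remaining arrays lay within a narrow band that all 3 groups share. TAGLN, a calponin relative that crosslinks actin, read 2154, 2572 and 2064 untreated, 279, 2256 and 2623 at 6 h, and 2505 and 2548 at 12 h. A second bright TAGLN probe set gave the same picture, with 230 on 6 h replicate 1 and 1698 to 2312 elsewhere. A dim TAGLN probe set (25.6 to 79.4 over the arrays) read 36.6 there and was not low.

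CCN2, a secreted factor of the matrix and a target of both MRTF and YAP, read 2547, 1646 and 1652 untreated, 394, 2451 and 2539 at 6 h, and 2053 and 1712 at 12 h. With that array set aside, the 6 h and 12 h values lay inside the untreated range, and both remaining 6 h values were above both 12 h values. PDLIM7, which links actin to signalling proteins, read 295, 334 and 310 untreated, 97.1, 348 and 392 at 6 h, and 319 and 329 at 12 h. ACTA2, the smooth muscle α-actin, read 5523, 5439 and 7023 untreated, 2629, 5304 and 7565 at 6 h, and 7030 and 7622 at 12 h. For PDLIM7 the lowest other array stood 3.04-fold above 6 h replicate 1, for CCN2 4.18-fold, for TAGLN 7.39-fold and for ACTA2 2.02-fold. No dimmer PDLIM7 probe set lay 2-fold or more under every other array. One read 69.3 there and 79.6 to 209 elsewhere, and another 43.3 inside a range of 9.37 to 98.3. The other ACTA2 probe set above the filter read 31.0 there, inside a range of 12.2 to 98.3.

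**Figure D1:**
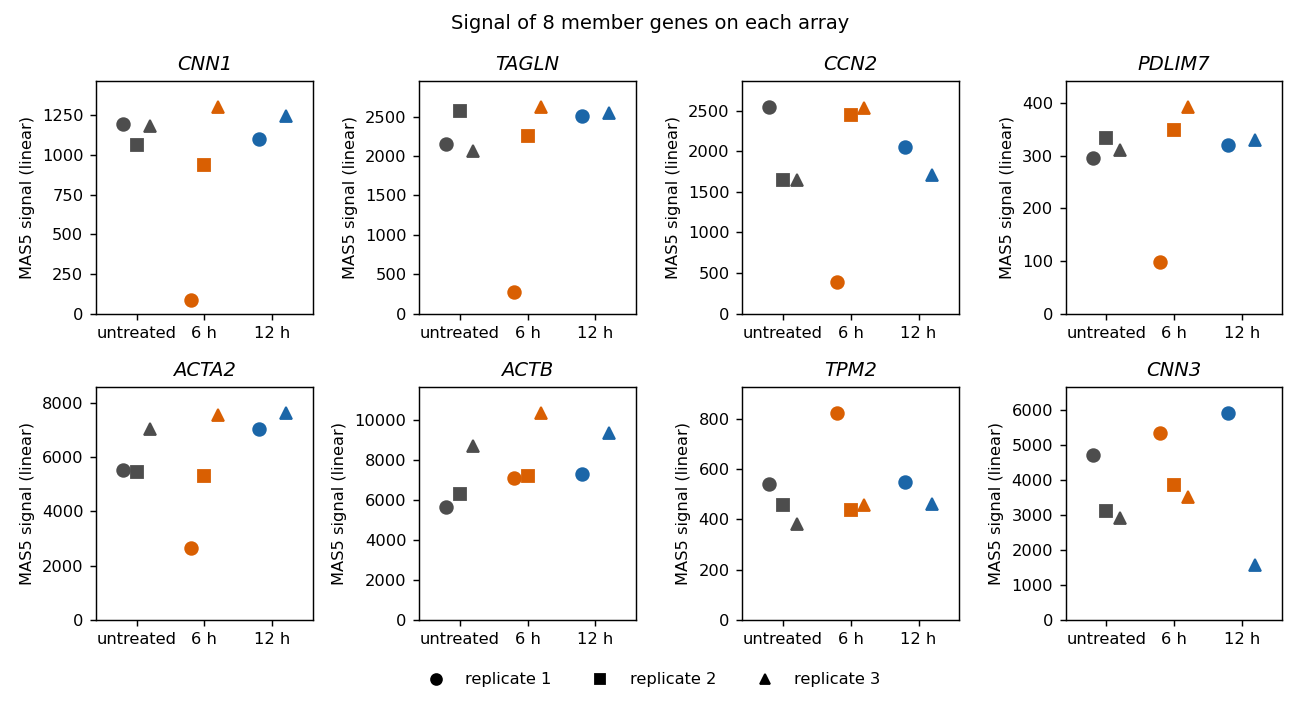
MAS5 signal (linear, from 0) of the brightest probe set of 8 members on each array. Groups are untreated (grey), 6 h (orange) and 12 h (blue), and the marker shape gives the replicate number. CNN1, TAGLN, CCN2, PDLIM7 and ACTA2 are low on 6 h replicate 1 only, with CNN1 at 83.5 against 939 to 1302 elsewhere, while ACTB is not low there and TPM2 is at its highest, 823.6.

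These 5 members were 5 of 30, beside 351 of all 12063 genes (2.91%) that lay 2-fold or more under all others on the same array. On each other array 0 of the 30 members did so, with 0.506% to 1.53% of all genes. At 8-fold or more the count over all genes came to 64 for 6 h replicate 1, where no other array had more than 2, so the array stood apart far beyond the members. Whether it holds the same stock of cells as the others cannot be read from the labels. Each value of this array, and each difference that includes it, is open to that doubt. TMEM98 read 2.31 there and 165 to 214 elsewhere, and GPX1 read 4.05 against 173 to 319. In the other direction DKK1, a secreted WNT inhibitor, read 1762 there against 126 to 240, and KRT18, a keratin of simple epithelia, 2064 against 342 to 733. The summed signal of the 4 epithelial genes measured was 477 to 974 untreated, 667 to 2291 at 6 h and 940 to 959 at 12 h, and KRT8 and EPCAM were inside the range of the other arrays. In RNA from a whole culture, fewer cells of a kind and less RNA per cell cannot be told apart, and the part of other cells in the low values was not tested.

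The same array also held many of the members' lowest values by smaller margins. The lowest of the 8 values fell on 6 h replicate 1 for 15 of the 30 members, against 16% of all genes. The median member differed from its mean log2 signal on the other 7 arrays by -0.47, and the median gene by 0.08. ACTG2, the enteric smooth muscle actin, read 53.95 there against 68.1 to 160 elsewhere, TPM4 read 683 against 921 to 1675, and SRF read 190 against 269 to 455. TPM2 and CNN3 went the other way, TPM2 with 823.6 against 380 to 549, and CNN3 with 5339 in a range of 1567 to 5918. ACTB, the cytoplasmic actin gene, read 7119 in a range of 5650 to 10370, and TPM1, ACTN1 and VCL were also inside the range of the other arrays.

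At the high end stood 6 h replicate 3, which held the highest value for 16 of the 30 members (53.3%) against 8.55% of all genes. The 6 h group therefore spans both ends of the members' range. The plot of all tested members by array shows this spread within the 6 h group.

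**Figure D2:**
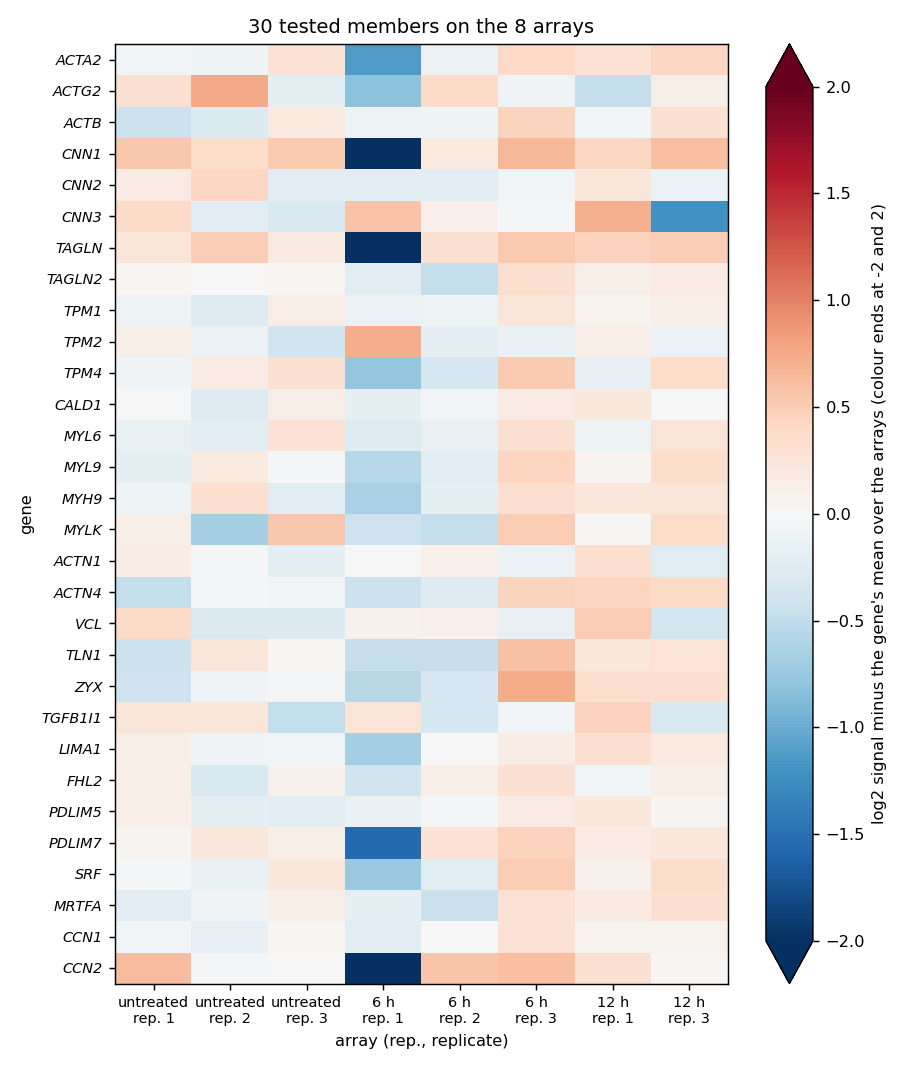
Log2 signal of each of the 30 tested members (rows) on each of the 8 arrays (columns), as the difference from the gene's mean over the arrays, with blue below and red above and the colour ending at -2 and 2. The column of 6 h replicate 1 is mostly blue, darkest for CNN1, TAGLN, CCN2 and PDLIM7, and the column of 6 h replicate 3 is mostly red.

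RNA quality, read as the 3′ over 5′ signal of ACTB, gave a ratio of 1.73 for 6 h replicate 1, 2.29 for 12 h replicate 1 and 1.125 to 1.38 for the remaining 6. The same ratio of GAPDH differed little, with 0.978 for 6 h replicate 1, 1.038 for 12 h replicate 1 and 0.927 to 1.01 for the remaining 6. On 12 h replicate 1, where the ACTB ratio was highest, CNN1 read 1097, TAGLN 2505, CCN2 2053 and ACTA2 7030, all within the range of the untreated arrays or above it. Across the members' 76 probe sets above the filter, 16 lay 2-fold or more under the median of the 6 remaining arrays on 6 h replicate 1, and 5 did so on 12 h replicate 1. They shared 4 probe sets, of CALD1, PDLIM5 and PDLIM7. None of the 4 is the brightest of its gene. How many of all probe sets met the same rule was not counted, so these counts have no background beside them. A dimmer CALD1 probe set differed from that median by -1.47 log2 units on the 6 h array and -1.64 on the 12 h array, and the brightest CALD1 probe set by -0.21 and 0.21.

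**Figure D3:**
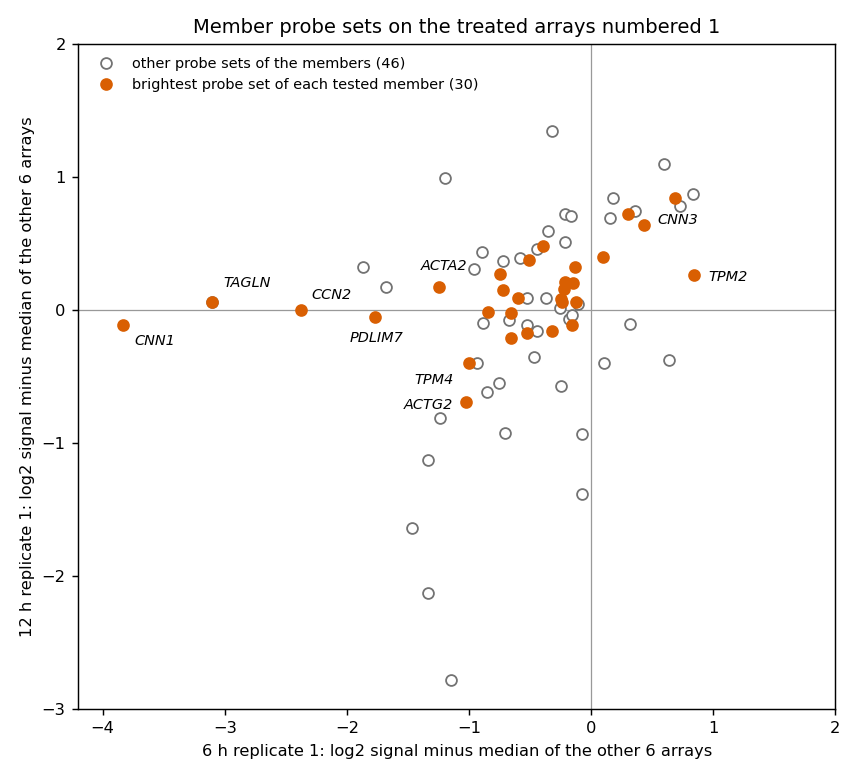
Each of the 76 member probe sets as its log2 signal on 6 h replicate 1 (x axis) and on 12 h replicate 1 (y axis) minus the median of the other 6 arrays; filled points are the brightest probe set of each of the 30 tested members. CNN1, TAGLN, CCN2 and PDLIM7 lie far to the left near a y value of 0, and a second set of dimmer probe sets lies low on both axes.

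For genes with several probe sets the choice among them mattered on these arrays. The dimmer CNN3 probe set differed from the median of the 6 remaining arrays by -0.85 (6 h replicate 1) and -0.62 (12 h replicate 1) log2 units, and the brighter one by 0.69 and 0.84. Both SRF probe sets were low on the 6 h array (-0.84 and -1.87) and near or above the median on the 12 h array (-0.02 and 0.33). The 3 MRTFA probe sets differed by -0.22, -0.35 and -1.68 on the 6 h array. The part of RNA quality in the low values was not tested.

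The members with a CArG box in the printed stretch were not the lowest on this array. From the mean log2 signal of the other 7 arrays ACTG2 differed by -0.93, TPM4 by -0.88, SRF by -0.85, MYLK by -0.48, FHL2 by -0.46 and CNN2 by -0.25. CNN1, CCN2, PDLIM7 and ACTA2, the 4 lower genes with a promoter entry, hold no CArG box in the window searched. CCN2 alone among them holds GGAATG. TAGLN was not searched, and neither was any sequence outside the window, which covers a single start of each gene. For ACTA2 that window was chr10:88991288-88991587 (- strand). These genes may therefore hold a box elsewhere or at another start. A part of SRF in the low values was not tested. CCN1, the close relative of CCN2, read 3566 there and 3727 to 5082 elsewhere.

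At 6 h against untreated, 12 of the 30 members had a log2 difference above 0 and 18 below it. Their median was -0.06 beside 0.02 for all genes tested. The groups did not overlap for 0 members in either direction, where 2.03% of all genes (2.04% of those above the 75th percentile of signal) lay wholly higher and 1.51% wholly lower. The 4 myosin genes (MYL6, MYL9, MYH9, MYLK) were all below 0 (-0.17 to -0.01), and 4 of the 5 calponin and transgelin genes were.

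The 6 members with the smallest unadjusted p were CNN1, TAGLN, CNN2, ACTG2, ACTB and TPM4. CNN1 differed by -1.29 ± 0.72 (log2, SE) and TAGLN by -0.93 ± 0.61, and both rest on the low array: without it they were -0.05 and 0.11. CNN2 differed by -0.29 ± 0.25, ACTG2 by -0.45 ± 0.40 and TPM4 by -0.33 ± 0.31. ACTB was 0.26 ± 0.24 higher. The adjusted p was 0.9999 in limma for each of these.

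CNN2, a broadly expressed calponin, read 564, 672 and 436 untreated, 432, 429 and 484 at 6 h, and 593 and 464 at 12 h. Its 6 h arrays sat close together, inside the untreated range or just under it. ACTG2 read 118, 160 and 82.5 untreated and 53.95, 124 and 90.4 at 6 h. ACTB read 5650, 6331 and 8707 untreated and 7119, 7208 and 10370 at 6 h, so each 6 h array was above the untreated array of its own number while the groups overlapped. With the replicate number as a block its difference was 0.26 ± 0.08 (limma adjusted p = 0.831). TPM4, a tropomyosin of non-muscle filaments, read 1114, 1301 and 1434 untreated, 683, 921 and 1675 at 6 h, and 1036 and 1512 at 12 h, with both treated groups spread to either side of the untreated arrays.

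Without 6 h replicate 1 the members' picture at 6 h turned over. Then 22 of the 30 were above 0, with a median of 0.09 (all genes near 0). Without 6 h replicate 2 it was 16 of 30 (median 0.02), and without 6 h replicate 3 it was 6 of 30 (median -0.31). The difference of CCN2 was -0.50 ± 0.54 with all arrays and 0.39 without 6 h replicate 1. With the replicate block and without that array, CCN2 was 0.55 ± 0.11 higher at 6 h (limma adjusted p = 0.874). SRF differed by -0.17 ± 0.31, and by 0.12 without the array. CCN1 differed by 0.08 ± 0.21, and by -0.01 under quantile normalization. ACTA2 differed by -0.33 ± 0.32, and by 0.09 without the array.

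The pairs of arrays with the same number disagreed. From untreated to 6 h, 6 of 30 members were higher in the number 1 pair (median -0.28), 14 in the number 2 pair (-0.06) and 29 in the number 3 pair (0.25). The all-gene median was 0.04, 0.03 and 0.01 in these pairs. Most members were thus higher at 6 h in the number 3 pair and lower in the number 1 pair.

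At 12 h against untreated, 25 of the 30 members lay above 0, with a median log2 difference of 0.15 beside 0.08 for all genes tested. All 7 crosslinker and focal adhesion genes and all 4 myosin genes were above 0 (0.06 to 0.60 and 0.09 to 0.23). All 30 members are bright, and among the 7601 genes above the 75th percentile of signal the median was 0.14 and 74.6% lay above 0, so the members' median was close to that of bright genes in general. Quantile normalization put 14 of the 30 above 0 (median -0.01), and centring each array on its median put all 30 above 0 (0.73, with 0.66 for all genes). With the replicate block and without 12 h replicate 1, which leaves 1 array at 12 h, 11 of 30 lay above 0 (median -0.06), and with the block and without untreated replicate 3, 17 of 30 (0.02).

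On the brightest probe sets, both 12 h arrays lay above every untreated array for 7 of the 30 members. These were ACTA2, TAGLN2, ACTN4, ZYX, LIMA1, MRTFA and CCN1. Over all genes 9.6% did so, and 12.9% of the bright ones. No member lay wholly below on its brightest probe set, where 4.89% of all genes did. A second ZYX probe set also separated (266 and 236 at 12 h against 118 to 200 untreated). Second probe sets of TAGLN2 (1086 and 1456 against 1129 to 1266) and CCN1 (3691 and 3477 against 3274 to 3520) overlapped. The other probe sets of ACTA2, LIMA1 and MRTFA above the filter overlapped too. Outside these 7 members, a dimmer ACTN1 probe set (1134 and 721 against 623 to 715) lay wholly higher at 12 h. So did another of ACTN1 (838 and 690 against 423 to 649.5), and a dimmer PDLIM7 probe set lay wholly lower (69.9 and 38.1 against 74.1 to 124.5).

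ACTN4, an α-actinin that crosslinks filaments at adhesions, read 551, 742 and 738 untreated and 1034 and 998 at 12 h. Its difference was 0.60 ± 0.30 (limma adjusted p = 0.9999), the largest among the 30 members here, and 0.59 ± 0.23 with the replicate block (adjusted p = 0.9998). With the block it was 0.24 without 12 h replicate 1 and 0.94 without 12 h replicate 3, each leaving 1 array at 12 h. At 6 h it read 565, 638 and 1039, so only replicate 3 reached the 12 h level. ZYX, the focal adhesion protein zyxin, read 187, 238 and 247 untreated, 170, 197 and 416 at 6 h, and 314 and 316 at 12 h. It was 0.50 ± 0.37 higher at 12 h, and with the block 0.036 without 12 h replicate 1 and 0.87 without 12 h replicate 3. Its 6 h arrays fell on both sides of the 12 h values.

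LIMA1, an actin-bundling LIM protein, read 1544, 1354 and 1360 untreated, 886, 1429 and 1565 at 6 h, and 1793 and 1623 at 12 h. It was 0.27 ± 0.28 higher, but the mean of its probe sets differed by -0.54, and a dimmer LIMA1 probe set differed by -0.81 on 12 h replicate 1. PDLIM5, a LIM protein of actin filaments, read 1165, 924.5 and 914 untreated, 971, 1046 and 1188 at 6 h, and 1236 and 1105 at 12 h. It was 0.23 ± 0.25 higher, and differed by -0.31 with its probe sets averaged. For both genes the direction rests on the probe set used.

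MRTFA, the actin-sensing cofactor of SRF, read 94.1, 105 and 119.5 untreated, 96.0, 80.5 and 135 at 6 h, and 125 and 139 at 12 h. CCN1, a secreted relative of CCN2, read 4012, 3727 and 4283 untreated, 3566, 4146 and 5082 at 6 h, and 4401 and 4390 at 12 h. In both genes the 6 h arrays spread wider than the untreated and 12 h arrays together.

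**Figure D4:**
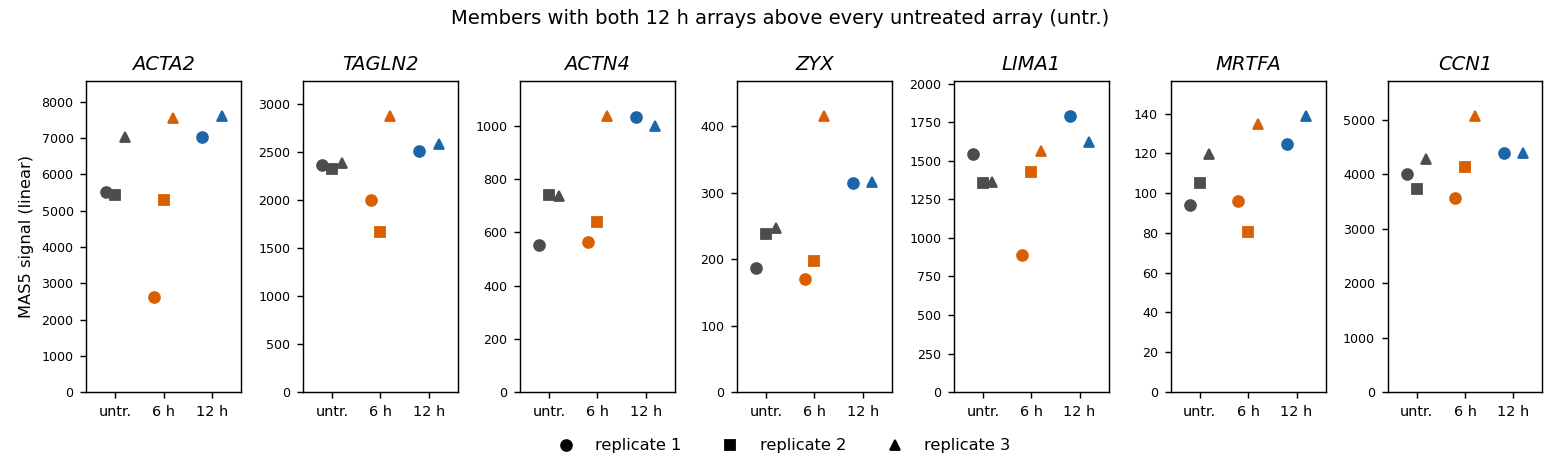
MAS5 signal (linear, from 0) of the brightest probe set on each array for 7 members. In these both 12 h arrays (blue) lie above every untreated array (grey). The 6 h arrays are in orange, and the marker shape gives the replicate number. The gap between the groups is wide for ACTN4 (742 to 998) and narrow for CCN1 (4283 to 4390), and the 6 h arrays of LIMA1 stay under both its 12 h arrays.

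ACTB was 0.29 ± 0.27 higher at 12 h, with 7325 and 9375, and the groups overlapped. ACTG2 differed by -0.47 ± 0.44, with 68.1 and 103, and by 0.11 under median centring. The genes most affected by the low 6 h array were close to their untreated level at 12 h: CNN1 differed by 0.03 ± 0.81, TAGLN by 0.17 ± 0.68 and CCN2 by -0.02 ± 0.61. The spread behind these standard errors includes the low 6 h array. SRF differed by 0.20 ± 0.35, with 337 and 407 against 312, 286 and 372. ACTA2 differed by 0.30 ± 0.35, and by -0.35 with its probe sets averaged. CCN1 differed by 0.14 ± 0.23, and by -0.01 under quantile normalization.

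The remaining genes of the fixed set stayed within overlapping ranges on their brightest probe sets. TPM1, a tropomyosin that lies along the filament, read 5250, 4717 and 6159 untreated, 5229, 5256 and 6657 at 6 h, and 5918 and 6215 at 12 h. TPM2 read 542, 459 and 380 untreated, 824, 435 and 458 at 6 h, and 549 and 461 at 12 h. CALD1, the filament-binding caldesmon, read 3950, 3290 and 4230 untreated, 3405, 3755 and 4376 at 6 h, and 4554 and 3928 at 12 h. On the brightest probe sets, 12 h separated from untreated in none of these. A second bright TPM1 probe set lay wholly higher at 12 h (4091 and 4744 against 3865 to 4032 untreated). A dimmer probe set each of TPM1 (84.9 and 96.3 against 97.3 to 140) and CALD1 (92.4 and 95.9 against 111 to 335) lay wholly lower.

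MYL9, the regulatory light chain of contractile myosin, read 354, 459 and 391 untreated, 269, 344 and 538 at 6 h, and 417 and 512 at 12 h. MYLK, the kinase that phosphorylates it, read 1154, 674.5 and 1548 untreated, 799, 765 and 1527 at 6 h, and 1091 and 1382 at 12 h. On its brightest probe set MYLK followed the replicate number more than the group. It was lowest under number 2 among untreated and 6 h arrays and highest under number 3. A dimmer MYLK probe set lay wholly higher at 12 h (718 and 540.5 against 335 to 513 untreated). Another, dimmer still, lay wholly lower (11.7 and 15.0 against 20.8 to 38.1). ANKRD1, a nuclear target of YAP and MRTF, read 0.985 to 45.95 and LMOD1, an actin nucleator of smooth muscle, 1.80 to 82.2, both highest on untreated replicate 2.

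At 12 h against 6 h, 27 of the 30 members lay above 0 (median 0.28, all genes 0.06), but this count depends on the low array. Of all genes 57.2% lay above 0, and of those above the 75th percentile of signal 70.8% (median 0.12). Without 6 h replicate 1, 22 of 30 lay above 0 with a median of 0.08, equal to the all-gene median of 0.08. With the replicate block and without that array, 14 of 30 did (median -0.02). The number 1 pair had 29 of 30 members higher at 12 h (median 0.44) and the number 3 pair 5 of 30 (median -0.13). This comparison shares the 6 h arrays with 6 h against untreated, so both carry the same low array with opposite sign.

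**Figure D5:**
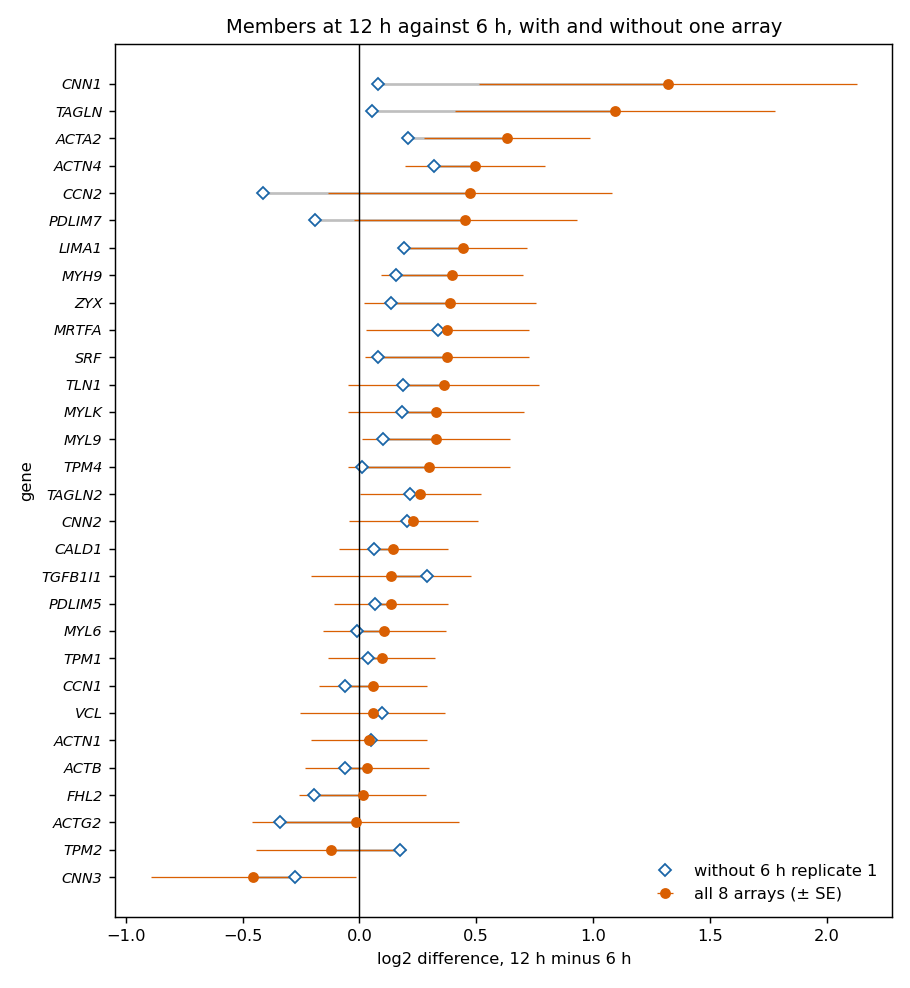
Log2 difference between 12 h and 6 h for each of the 30 tested members (rows), with all 8 arrays (orange, bars are SE) and without 6 h replicate 1 (blue diamonds). CNN1 goes from 1.32 to 0.08 and TAGLN from 1.10 to 0.05, and CCN2 goes from 0.48 to -0.41.

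The 6 members with the smallest unadjusted p were ACTA2, ACTN4, CNN1, TAGLN, LIMA1 and MYH9, all higher at 12 h. CNN1 differed by 1.32 ± 0.81, TAGLN by 1.10 ± 0.68 and ACTA2 by 0.63 ± 0.35, and without 6 h replicate 1 by 0.08, 0.05 and 0.21. ACTN4 differed by 0.49 ± 0.30 (0.32 without that array), LIMA1 by 0.44 ± 0.28 (0.19) and MYH9, the heavy chain of non-muscle myosin, by 0.40 ± 0.31 (0.16). The adjusted p in limma was 1.0 for each. MYH9 read 835, 1103 and 769 untreated, 567, 782 and 1120 at 6 h, and 1039 and 1046 at 12 h.

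On the brightest probe sets, LIMA1 was the 1 member whose 12 h arrays both lay above every 6 h array. Of all genes 7.1% and of bright genes 9.21% did so. Wholly below lay 0 members, where 4.5% of all genes did. ACTB differed by 0.03 ± 0.27, CCN1 by 0.06 ± 0.23, SRF by 0.37 ± 0.35 and CCN2 by 0.48 ± 0.61. Without 6 h replicate 1 CCN2 differed by -0.41, CCN1 by -0.06 and ACTB by -0.06. Each of the 4 differences with all arrays was close to or under its own standard error.

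The wider pathway was examined through 3 lists, of which 0 genes were called in any comparison. Over all genes tested 53.0% lay above 0 at 6 h, 59.9% at 12 h against untreated and 57.2% at 12 h against 6 h. Among bright genes these shares were 53.8%, 74.6% and 70.8%. The TCF arm of SRF, which answers growth factor signalling, had 7 of 11 genes tested. At 6 h 3 lay above 0 and at 12 h all 7 (median 0.17). EGR1, an immediate early gene, differed by -0.64 ± 0.51 at 6 h, and read 70.6 on 6 h replicate 1 against 211 to 471 elsewhere. The ternary complex factor ELK4 was 0.38 ± 0.30 higher at 6 h and 0.46 ± 0.34 at 12 h, with ELK3 0.31 ± 0.31 higher at 12 h. From 6 h to 12 h EGR1 was 0.81 ± 0.57 and ELK3 0.29 ± 0.31 higher, and 7 of 7 lay above 0.

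Of the YAP to TEAD genes 12 of 13 were tested, and 4 lay above 0 at 6 h, 8 at 12 h, and 10 at 12 h against 6 h. The angiomotin AMOTL1, which binds YAP at junctions, read 6.64 on 6 h replicate 1 against 125.5 to 245 elsewhere, and differed by -1.38 ± 0.93 at 6 h and by 1.90 ± 1.04 at 12 h against 6 h. The coactivator WWTR1 was 0.39 ± 0.31 higher at 6 h. TEAD2 differed by -0.88 ± 0.42 and TEAD1 by 0.37 ± 0.28 at 12 h against untreated, and AMOTL2 was 0.45 ± 0.29 higher at 12 h than at 6 h. YAP1 itself read 535 on 6 h replicate 1, inside its range of 376.5 to 683 elsewhere.

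Of the other actin, myosin and adhesion genes 28 of 37 were tested, and 13 lay above 0 at 6 h, 22 at 12 h against untreated and 18 at 12 h against 6 h. PDLIM3, a LIM protein that binds α-actinin, read 7.89 on 6 h replicate 1 against 182 to 321 elsewhere, and the focal adhesion protein TES read 7.03 against 157 to 350. Their differences were -1.71 ± 0.96 and -1.65 ± 1.01 at 6 h, and TES was 2.15 ± 1.13 higher at 12 h than at 6 h, beside PDLIM4 at 0.68 ± 0.37. SYNPO2, an actin-bundling protein of smooth muscle, was high on the same array, with 608 against 86.6 to 185. At 12 h against untreated VASP differed by -0.55 ± 0.40 and PPP1R12A by 0.33 ± 0.29. EGR1, AMOTL1, TES and PDLIM3 were the tested genes of these 3 lists that lay 2-fold or more under every other array on 6 h replicate 1. By list this was 1 of 7 TCF genes, 1 of 12 YAP to TEAD genes and 2 of these 28, beside 2.91% of all genes.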

How the data were processed

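RNA from 8 Saos-2 samples was measured on 1 Affymetrix array each. The submitters' processing notes name MAS5, with which the authors turned the scans into linear signal intensity per probe set; its version and settings are not given in the sources used here. Of 54675 probe sets 62 controls were left out, 41091 had 1 gene symbol, 1801 several, and 11721 were not listed. Each gene was read from its brightest single-gene probe set. Signals were floored at 2.386 (10th percentile) and logged, and the floor understates the fold change of dim genes. Genes with a mean log2 signal above 4.216 (the median) were tested. Differences were fitted with limma 3.58.1 in R 4.3.3 (variance trend, the 3 groups in 1 fit), two-sided, with Benjamini-Hochberg adjustment over 12063 genes and a threshold of 0.05. The script was tested on simulated data. The number of arrays limits the precision. Probe sets of different genes were set side by side only as bright or dim signals, and no difference in level between genes was tested.

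The members and lists were chosen with earlier results of these data known. Values on every array are given for ACTA2, ACTG2, ACTB, ACTG1, CNN1, TAGLN, TPM1, TPM2, MYL9, MYLK, CALD1, CCN1, CCN2, ANKRD1, SRF and MRTFA as far as measured (ANKRD1 by its range), and for the 6 tested members with the smallest p in each comparison. PDLIM7, CNN3 and the genes that stood apart on 1 array were named after their values were seen, as were the counts by array. Same-numbered arrays deviated together to unequal degrees, with correlations over genes of 0.108 to 0.163 for number 1 and 0.492 to 0.637 for numbers 2 and 3. Differently numbered pairs ran from -0.576 to 0.333, so pairing is not shown for number 1. The 2 arrays at 12 h deviate as mirror images of each other, so their correlations are not independent. Printed differences come from the fit without the block, unless the block is named. A further list of pathway genes is not reported here.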

Additional observations from a re-analysis of the deposited data

How the results depend on the processing

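Over 31 alternative settings per comparison, 0 genes passed the threshold in each, with limma. The members' median log2 difference moved beyond the spread of the arrays under median centring, to 0.73 for 12 h against untreated and 0.87 for 12 h against 6 h. With single arrays left out, with or without the replicate block, it ran from -0.31 to 0.10 (6 h against untreated), -0.06 to 0.33 (12 h against untreated) and -0.02 to 0.53 (12 h against 6 h). The replicate block alone gave medians of -0.06, 0.12 and 0.25 and changed no call. For the 32 differences of named members, 71 of 990 repeats changed sign, and the cause was not tested. With arrays left out ACTN4 ran from 0.24 to 0.94 and ZYX from 0.036 to 0.87 for 12 h against untreated.

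For 6 h against untreated CCN1 became -0.0076 under quantile normalization, and array weights with the block gave 0.089 for CCN2 and 0.069 for SRF. With arrays left out TAGLN ran from -1.65 to 0.11, ACTA2 from -0.67 to 0.0895, CCN1 from -0.057 to 0.22, CCN2 from -1.12 to 0.55 and SRF from -0.51 to 0.12. For 12 h against untreated averaged probe sets gave -0.54 for LIMA1, -0.31 for PDLIM5 and -0.35 for ACTA2. Quantile normalization gave -0.13 for CNN1 and -0.0077 for CCN1, and median centring 0.11 for ACTG2 and 0.56 for CCN2. CNN1 was -0.020 with array weights and -0.026 without the number 2 arrays (the same with the block), and CCN2 was 0.14 with the block and 0.043 with weights and block. With arrays left out ACTG2 ran from -0.77 to 0.20, ACTA2 from -0.10 to 0.72, CNN1 from -0.64 to 1.23, TAGLN from -0.33 to 1.23, CCN1 from -0.049 to 0.26, CCN2 from -0.51 to 1.02 and SRF from -0.10 to 0.38.

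For 12 h against 6 h LIMA1 was -0.41 with averaged probe sets. ACTB was -0.034 with the block, -0.033 with array weights, -0.059 with both and -0.052 without the number 2 arrays, with or without the block. CCN1 was -9.5e-05 under quantile normalization and -0.0845 with weights and block, and CCN2 -0.0465 with the latter. With arrays left out CNN1 ran from -0.027 to 2.56, ACTB from -0.15 to 0.21, CCN1 from -0.15 to 0.19, CCN2 from -0.67 to 1.41 and SRF from -0.040 to 0.71. Leaving out a 12 h array leaves 1 sample there, which is assumed to vary like the other groups.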
